A study of Mus musculus with 8 samples.

Results

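The platelet-derived growth factor (PDGF) genes measured here are the 4 ligand genes Pdgfa, Pdgfb, Pdgfc and Pdgfd, the receptor genes Pdgfra and Pdgfrb, and the receptor-like gene Pdgfrl, 7 of 22180 genes on the arrays. They were taken as a family, which was chosen by the measured Pdgfb signal: it was lower in lines from cholangiocarcinoma than in lines from hepatocellular carcinoma. The Pdgfb difference between the tumour types is therefore a description of the values that led to the choice, and no p-value for it is given or read as support. The other 6 genes came with the family and not for their own values, and each was represented by the 1 probe set that names it alone.

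PDGF ligands are secreted dimers that bind and pair receptor tyrosine kinases on the cell surface. PDGF-A and PDGF-B are cleaved inside the cell and PDGF-C and PDGF-D carry a CUB domain that is removed outside it. The alpha receptor binds the A, B and C chains and the beta receptor binds the B and D chains, and the activated receptors signal through RAS and the MAP kinases, phosphatidylinositol 3-kinase and phospholipase C gamma. In the liver the beta receptor is known as a marker of stellate cells, and in bile duct cancer tumour cells are known to signal to surrounding fibroblasts through PDGF ligands.

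Expression was profiled on Affymetrix arrays in 8 clonal mouse lines on the C57BL/6 background, 4 from intrahepatic cholangiocarcinoma (ICC, a bile duct type of liver cancer) and 4 from hepatocellular carcinoma (HCC, a hepatocyte type). Both types derive from transformed hepatocytes per the study's title. All lines carry the same oncogenes, c-Myc and NrasG12V on the pCaMIN vector, and all were cultured without treatment; the age of the animals is not given in the sources used here. ICC arose after electroporation at one site of the liver and HCC after injection of plasmid into the tail vein, so tumour type and delivery cannot be told apart. ICC9 and ICC10 are labelled female and ICC2.7 and ICC2.9 male, and HCC2.1 and HCC2.4 are labelled female and HCC1 and HCC4 male. Each line is 1 clone on 1 array, and the labels do not say which lines share an animal or a tumour. Labelled sex also runs along the naming of the lines within each type, so sex and a shared tumour of origin cannot be told apart. The p-values therefore cover the spread among these 8 clones and no more.

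Array medians lay between 5.02 and 5.09 log2 units. The 8 columns vary along only 7 directions: along the remaining one, in which ICC9 has the largest weight (0.782) and ICC10 the next in size (-0.538), the values have a root mean square of 0.00289 log2 units, about that of rounding. The columns are therefore not fully independent, while the SDs, standard errors and p-values below treat each line as 1 independent sample. Of the labelled cell types, 1 of 8 hepatocyte markers and 3 of 6 bile duct markers lay above the median gene level of 5.66, and Alb, the main secreted hepatocyte protein, measured 4.32 ± 0.22 in ICC and 4.28 ± 0.14 in HCC lines (log2, SD over 4 lines each).

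Start-site windows from RefSeq (GRCm38.p6) were read for 4 of the 7 genes: Pdgfa, Pdgfc, Pdgfd and Pdgfra. Windows of the remaining members are not reported here, which does not mean that RefSeq lacks them. The 250 bases before the start of the 2 CUB-domain ligands are shown because these genes are the ligands with a called sex difference, Pdgfc over all lines and Pdgfd in ICC lines. Capitals mark matches to any of 5 motifs searched on both strands: the TATA box TATAAA, the E-box CACGTG bound by MYC, the GC box GGGCGG, the AP-1 site TGANTCA and the CCAAT box CCAAT. The Pdgfc window lies at chr3:81036166-81036415 on the plus strand and the Pdgfd window at chr9:6168236-6168485 on the plus strand.
Pdgfc: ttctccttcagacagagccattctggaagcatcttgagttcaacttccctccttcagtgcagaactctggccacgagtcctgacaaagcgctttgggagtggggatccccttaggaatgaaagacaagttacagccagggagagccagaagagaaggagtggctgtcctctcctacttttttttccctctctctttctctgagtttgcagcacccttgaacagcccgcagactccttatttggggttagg
Pdgfd: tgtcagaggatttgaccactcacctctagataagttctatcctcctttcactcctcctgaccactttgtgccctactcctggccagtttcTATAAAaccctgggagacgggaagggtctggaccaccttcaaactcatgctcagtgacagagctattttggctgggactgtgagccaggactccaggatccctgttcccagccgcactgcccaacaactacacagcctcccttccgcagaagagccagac
The Pdgfd window holds 1 TATAAA, at 160 to 155 bases before the start, and the Pdgfc window holds none of the 5 motifs. TATAAA occurs in 12.4% of 32851 RefSeq windows of this length, CACGTG in 6.02%, GGGCGG in 32.7%, TGANTCA in 6.75% and CCAAT in 33.8%, and motifs were not tested against the expression values. The Pdgfc and Pdgfd windows were 50.8% and 53.6% G and C, against 66.4% and 72.4% in the 2 Pdgfa windows and a median of 52.4% over all windows. The Pdgfa windows held 1 and 2 GC boxes, and the Pdgfra window held none of the 5 motifs.

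Pdgfb, which encodes the B chain that binds both receptors, was the 1 ligand gene with separate levels in the tumour types. Its log2 signal was 7.18 in ICC9, 7.28 in ICC10, 7.57 in ICC2.7 and 6.66 in ICC2.9, and 8.93 in HCC1, 8.28 in HCC4, 8.60 in HCC2.1 and 8.71 in HCC2.4. The highest ICC line, ICC2.7, lay below the lowest HCC line, HCC4, so the types did not overlap. The means were 7.17 ± 0.38 in ICC and 8.63 ± 0.27 in HCC (SD over the 4 lines of each type), a log2 difference of -1.46 (SE 0.20), or 2.75-fold lower in ICC. Over all genes 4.44% were lower in every ICC than in every HCC line, and 0.541% had a difference between the means at least as large in either direction.

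Pdgfb was lower in ICC in lines of either labelled sex. Both differences are parts of the one that led to the choice of the family, so they are descriptions and no separate support. It was -1.42 (SE 0.31) between the female-labelled lines and -1.49 (SE 0.31) between the male-labelled lines. The difference of these differences was 0.07 (SE 0.44), with an adjusted p of 0.950 for the interaction of type and sex by limma over all genes. With 2 lines per group this does not show that the differences are equal. In order of mean the groups were male-labelled ICC (7.11), female-labelled ICC (7.23), male-labelled HCC (8.61) and female-labelled HCC (8.65). Neighbours within a type differed by less than the gap between lines of one group, which reached 0.91 between ICC2.7 and ICC2.9. Only the step from ICC to HCC was wider than that.

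**Figure D1:**
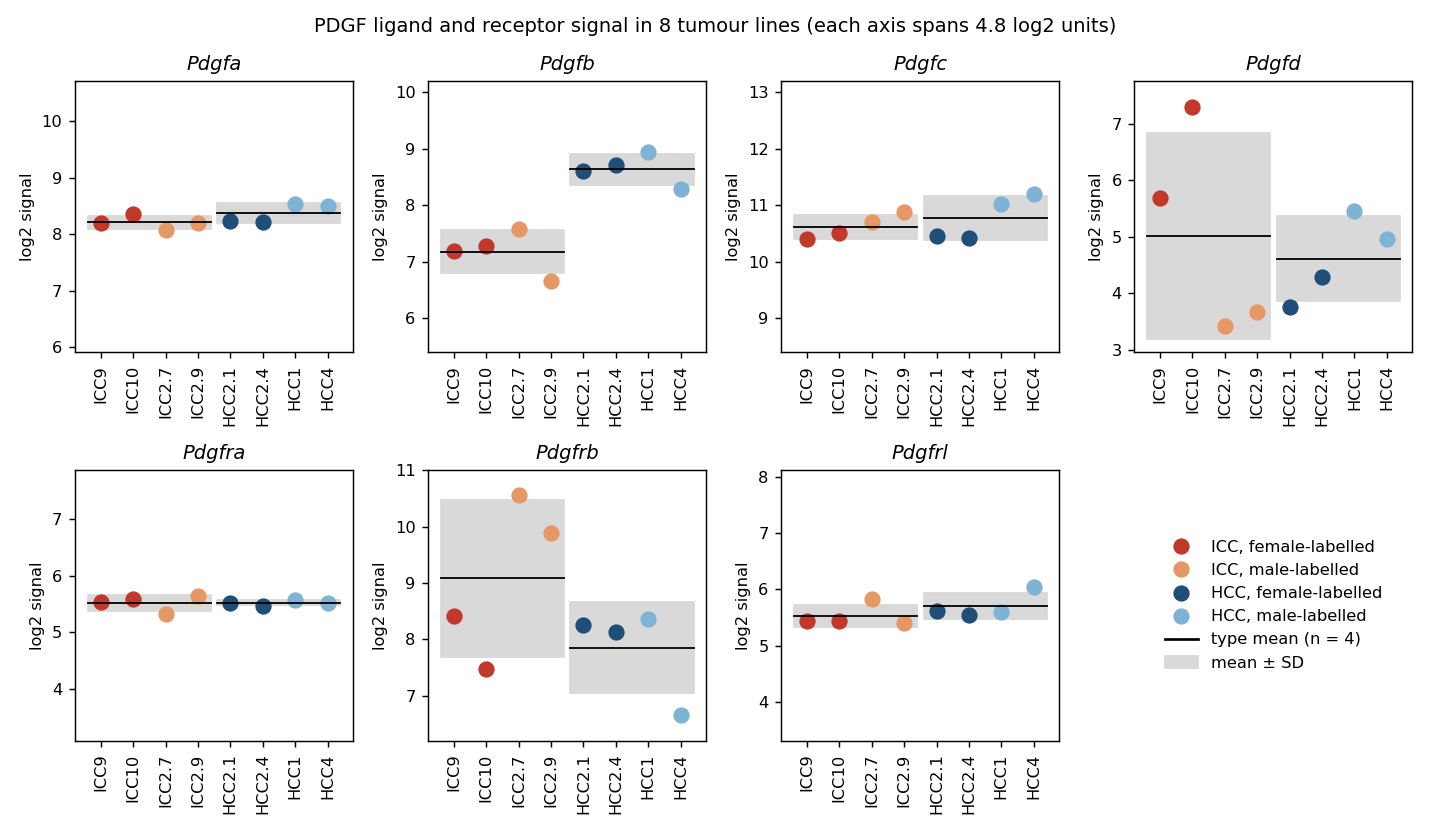
Log2 signal of the 7 PDGF genes in each of the 8 lines, one panel per gene with axes of equal length; points are lines coloured by tumour type and labelled sex, black lines are type means and grey bands the mean ± SD over 4 lines. Pdgfb separates the types, Pdgfd and Pdgfrb spread by 3.87 and 3.89 log2 units over the lines, and Pdgfa, Pdgfc, Pdgfra and Pdgfrl stay within a range of 0.80.

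The other ligand that is cleaved inside the cell, Pdgfa, varied little. On the log2 scale it measured 8.20 in ICC9, 8.36 in ICC10, 8.08 in ICC2.7 and 8.20 in ICC2.9, and 8.54 in HCC1, 8.5 in HCC4, 8.23 in HCC2.1 and 8.22 in HCC2.4. The types overlapped, with ICC10 above the female-labelled HCC lines. The means of 8.21 ± 0.11 and 8.37 ± 0.17 (SD, n = 4 each) differed by -0.16 (SE 0.11), and the difference did not pass limma's test over all genes (adjusted p = 0.544). The range over the 8 lines, 0.46, was met or exceeded by 67.0% of all genes.

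Pdgfc, whose CUB-domain product acts mainly through the alpha receptor, had a high signal in every line. It measured 10.40 in ICC9, 10.51 in ICC10, 10.70 in ICC2.7 and 10.88 in ICC2.9, and 11.02 in HCC1, 11.20 in HCC4, 10.46 in HCC2.1 and 10.42 in HCC2.4 (log2 signal). The 4 male-labelled lines were the 4 highest and the 4 female-labelled lines the 4 lowest, while the tumour types overlapped. How many of all genes split by labelled sex in this way was not counted. Between the types the difference was -0.15 (SE 0.20, adjusted p = 0.773).

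With tumour type in the model Pdgfc was lower in female-labelled lines, at 10.45 against 10.95 (log2 difference -0.50, SE 0.10, limma's adjusted p = 0.0435). It was the 1 of 7 PDGF genes called in this comparison, in which 2.94% of all genes were called. The direction was the same within both types, at -0.34 (SE 0.12, adjusted p = 0.160) in ICC and -0.67 (SE 0.12, adjusted p = 0.0384) in HCC lines. The call lay close to the threshold: it was lost with quantile normalization (adjusted p = 0.0514), with the direction without variation as a covariate (0.12) and in 7 of 8 fits that left out 1 line (up to 0.177, without ICC9), and it held without ICC2.7 (0.0465). The difference in those 8 fits stayed between -0.57 and -0.43.

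Pdgfd, the ligand that binds the beta receptor after removal of its CUB domain, varied most among the ligands. Its log2 signal was 5.69 in ICC9, 7.29 in ICC10, 3.42 in ICC2.7 and 3.67 in ICC2.9, and 5.46 in HCC1, 4.95 in HCC4, 3.76 in HCC2.1 and 4.28 in HCC2.4. ICC10 stood highest and the male-labelled ICC lines lowest, so that the ICC lines spanned the whole range of the HCC lines. The range of 3.87 was met or exceeded by 0.419% of all genes.

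The type means of Pdgfd, 5.02 ± 1.82 in ICC and 4.61 ± 0.75 in HCC lines (SD, n = 4 each), differed by less than the spread within either type (0.41, SE 0.81, adjusted p = 0.867). The difference without ICC10 was -0.35 (adjusted p = 0.826), opposite in direction. Group means ran from male-labelled ICC (3.54) through female-labelled HCC (4.02) and male-labelled HCC (5.21) to female-labelled ICC (6.49). The first neighbours in this order differed by less than the gap of 0.52 between the lines of the second. Female-labelled ICC and male-labelled HCC differed by less than the gap of 1.60 between ICC9 and ICC10. Below the median gene level of 5.66 lay 6 of the 8 lines, and signal over background was not assessed.

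The sex difference of Pdgfd had opposite signs in the tumour types. In ICC lines female-labelled lines were higher by 2.95 (SE 0.47, limma's adjusted p = 0.0218 with the spread of all 4 groups), where 3.99% of all genes were called. The male-labelled ICC values of 3.42 and 3.67 lay near those of Dcn and Lum (3.31 ± 0.07 and 3.49 ± 0.11 in ICC lines, SD, n = 4 each), fibroblast genes among the dimmest of the lists, so the difference is not given as a fold. In HCC lines female minus male was -1.19 (SE 0.47) and did not pass (adjusted p = 0.219), where 2.66% of genes were called. Read the other way, ICC minus HCC was 2.47 in female-labelled (adjusted p = 0.0672) and -1.66 in male-labelled lines (adjusted p = 0.0841, and 0.0492 with the spread of the male-labelled lines alone). The difference between these values, 4.13 (SE 0.67), did not pass over all genes (adjusted p = 0.113). No gene passed that interaction test (percent called 0), at the unadjusted threshold of 0.05 there were 20.1%, and 0.0676% had a difference at least as large as that of Pdgfd.

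The female-labelled ICC lines were far apart in this gene. ICC9 and ICC10 differed by 1.60 in Pdgfd, a gap met or exceeded by 0.0766% of genes in this pair. Both lines weigh most in the direction without variation. Fits that adjust for that direction or leave out ICC9 are therefore no separate results. The interaction passed when the direction without variation was a covariate (4.69, adjusted p = 0.0106) and without ICC9 (4.93, adjusted p = 0.00836), and was 3.33 without ICC10 (adjusted p = 0.0852).

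Pdgfrb, the beta receptor and the receptor for PDGF-B and PDGF-D, had the widest range of the family. Its log2 signal was 8.41 in ICC9, 7.48 in ICC10, 10.55 in ICC2.7 and 9.89 in ICC2.9, and 8.37 in HCC1, 6.66 in HCC4, 8.25 in HCC2.1 and 8.14 in HCC2.4. The male-labelled ICC lines stood above all others, HCC4 stood lowest, and the remaining 5 lines lay between 7.48 and 8.41. The range of 3.89 was 14.8-fold and was met or exceeded by 0.406% of all genes.

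The type means of Pdgfrb were 9.08 ± 1.39 in ICC and 7.86 ± 0.80 in HCC (SD, n = 4 each). The difference of 1.23 (SE 0.67) did not pass over all genes (adjusted p = 0.446), although 0.965% of genes had a difference as large. In the male-labelled lines it was 2.71 (SE 0.54, 6.52-fold, adjusted p = 0.0357 by limma with the spread of all 4 groups), where 6.05% of all genes were called. This call was lost with the spread of the male-labelled lines alone (adjusted p = 0.122). In the female-labelled lines it was -0.25 (SE 0.54, adjusted p = 0.858), where 0.978% were called. The interaction, -2.96 (SE 0.77), did not pass (adjusted p = 0.122; from 0.0609 to 0.542 without 1 line). HCC1 and HCC4 were 1.71 apart, so the male-labelled difference varies with the HCC line it is set against.

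**Figure D2:**
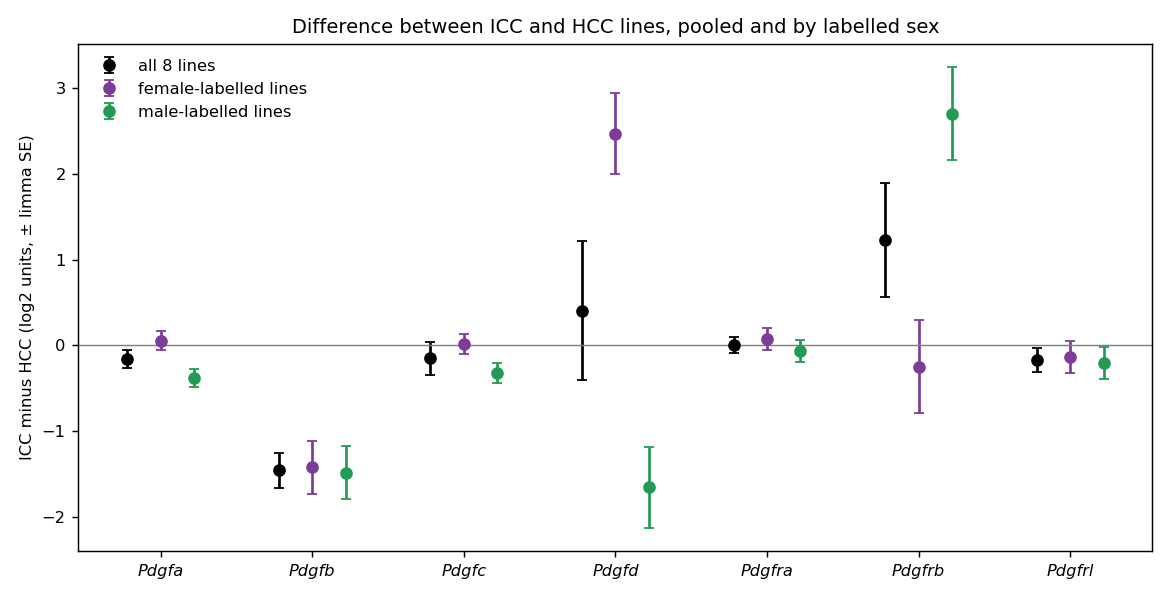
ICC minus HCC difference of each PDGF gene in log2 units, over all 8 lines (black) and within female-labelled (purple) and male-labelled lines (green); bars are ± 1 limma standard error. Pdgfb is lower in ICC by 1.42 to 1.49 in both sexes, Pdgfd changes sign between them, and Pdgfrb differs by 2.71 in male-labelled and -0.25 in female-labelled lines; neither of these 2 interactions passed over all genes.

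The alpha receptor, Pdgfra, which binds the A, B and C chains, was nearly flat. Its values were 5.54 in ICC9, 5.60 in ICC10, 5.32 in ICC2.7 and 5.64 in ICC2.9, and 5.58 in HCC1, 5.52 in HCC4, 5.52 in HCC2.1 and 5.47 in HCC2.4. No line reached the median gene level of 5.66, and the types overlapped throughout. The means of 5.53 ± 0.14 and 5.52 ± 0.05 (SD, n = 4 each) differed by 0.00 (SE 0.09, adjusted p = 0.995), and 87.9% of genes had a range at least as wide as the 0.32 of Pdgfra.

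Pdgfrl, which encodes a protein with similarity to the outer part of the receptors and no kinase, also varied little. It measured 5.45 in ICC9, 5.44 in ICC10, 5.83 in ICC2.7 and 5.40 in ICC2.9, and 5.61 in HCC1, 6.04 in HCC4, 5.62 in HCC2.1 and 5.54 in HCC2.4 (log2 signal). ICC2.7 and HCC4 each stood above the rest of their type. The type means of 5.53 ± 0.20 and 5.70 ± 0.23 (SD, n = 4 each) differed by -0.17 (SE 0.14, adjusted p = 0.629).

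Of the 6 members other than Pdgfb, 0 passed limma's test between the types, where 0.261% of all genes were called. At an unadjusted p under 0.05 there were also 0, against 14.1% of all genes. Pdgfb is left out of these counts because the family was chosen by it. The 7 differences, that of Pdgfb included, had a median of -0.15, against 0.00 over all genes. Across the 8 lines the members had no common profile. Of 21 pairs the strongest Pearson correlation in size was that of Pdgfa with Pdgfrb, at -0.72, followed by Pdgfa with Pdgfc at 0.63 and Pdgfd with Pdgfrb at -0.61. These are descriptions over 8 lines that come in 4 groups of 2, and the array measures shared by all genes enter each of them. Pdgfb with Pdgfrb gave -0.41 and Pdgfb with Pdgfd -0.10, so the ligand that separated the types and the genes that varied by line did not follow one another.

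Genes around the family were counted in 5 lists, and limma called 0 of their 73 measured members between the types, against 0.261% of all genes (at an unadjusted p under 0.05 there were 11, against 14.1% of genes overall). Of the 73, 4 were higher and 2 lower in every ICC than in every HCC line, against 4.19% and 4.44% of all genes. Among class III receptor kinases and their ligands, the nearest relatives of the PDGF receptors, 0 of 6 passed and the median difference was 0.08. Il34, a ligand of the CSF1 receptor, had the smallest p of that list, at 8.34 ± 0.10 in ICC and 7.95 ± 0.17 in HCC lines (SD, n = 4 each, adjusted p = 0.160). The receptor Kit measured 5.16 ± 0.03 and 5.0 ± 0.10, and its ligand Kitl 8.94 ± 0.17 and 9.29 ± 0.67. Il34 and Kit were higher in every ICC than in every HCC line.

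Among 11 genes for processing or binding of the ligands 0 passed, with a median of 0.16. Plat, tissue plasminogen activator, which removes the CUB domain of PDGF-C, measured 10.17 ± 0.27 in ICC and 9.66 ± 0.27 in HCC lines (0.51, SE 0.17, adjusted p = 0.240). Pcsk6, a proprotein convertase, measured 6.21 ± 0.75 and 7.34 ± 0.55 (-1.13, SE 0.39, adjusted p = 0.250). Lrp1, an endocytic receptor that can associate with the beta receptor, measured 10.40 ± 0.32 and 10.85 ± 0.17 (-0.45, SE 0.16, adjusted p = 0.274). None of the 3 separated the types without overlap.

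Among 26 adaptors and effectors of the receptors 0 passed, and the median difference was 0.02. The adaptor Grb10 measured 5.49 ± 0.32 in ICC and 4.77 ± 0.17 in HCC lines (0.72, SE 0.16, adjusted p = 0.105) and was the 1 gene of this list whose types did not overlap, where 4.19% of all genes were higher in every ICC than in every HCC line. The Src family kinase Fyn measured 8.15 ± 0.84 and 7.13 ± 0.09 (adjusted p = 0.250). In single lines it measured 8.92 in ICC2.7 and 8.79 in ICC2.9, against 7.71 and 7.19 in ICC9 and ICC10 and 7.0 to 7.20 in HCC lines, so the male-labelled ICC lines stood out as they did for Pdgfrb. The transcription factor Stat5b measured 6.63 ± 0.40 and 7.16 ± 0.16 (adjusted p = 0.267).

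Attenuators of receptor signalling gave 0 of 11 called. Of these, 10 had a positive difference and the median was 0.17, against 0.00 over all genes. The receptor phosphatase Ptprj, which dephosphorylates the beta receptor, measured 7.76 ± 0.29 and 7.45 ± 0.15 (adjusted p = 0.406). The phosphatase Ptpn2 measured 8.62 ± 0.05 and 8.45 ± 0.11 and Acp1 9.29 ± 0.10 and 9.12 ± 0.18.

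Early response genes, which PDGF and many other serum factors induce, gave 0 of 19 called between the types, with 12 differences below 0 and a median of -0.36. Ccn2, a matrix-associated growth regulator, came nearest. Its log2 signal was 9.53 in ICC9, 9.62 in ICC10, 8.98 in ICC2.7 and 8.27 in ICC2.9, and 10.15 in HCC1, 10.67 in HCC4, 10.97 in HCC2.1 and 11.07 in HCC2.4. The types did not overlap in Ccn2 or in Klf10, where 4.44% of all genes were lower in every ICC than in every HCC line. The Ccn2 difference of -1.61 (SE 0.31, 3.06-fold lower in ICC) had an adjusted p of 0.0806 by limma. Klf10 measured 9.04 ± 0.24 and 9.49 ± 0.26 (adjusted p = 0.258), and the prostaglandin synthase Ptgs2 11.68 ± 0.48 and 12.11 ± 0.08 (adjusted p = 0.402).

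In the early response list, 17 of 19 genes had a positive interaction of type and sex, with a median of 1.14 log2 units against 0.02 over all genes, the direction of Pdgfd. None of the 19 passed over all genes, and the members of such a list tend to move together. Fos, a subunit of AP-1 named here after its values were seen, measured 10.09 in ICC9 and 11.04 in ICC10 but 8.87 in ICC2.7 and 8.26 in ICC2.9. In HCC lines Fos measured 10.07 in HCC1, 10.74 in HCC4, 9.92 in HCC2.1 and 9.28 in HCC2.4. Its interaction was 2.81 (SE 0.55, adjusted p = 0.113). Over the 8 lines the mean of the list correlated with Pdgfd at 0.74 and with Pdgfrb at -0.78, as a description.

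**Figure D3:**
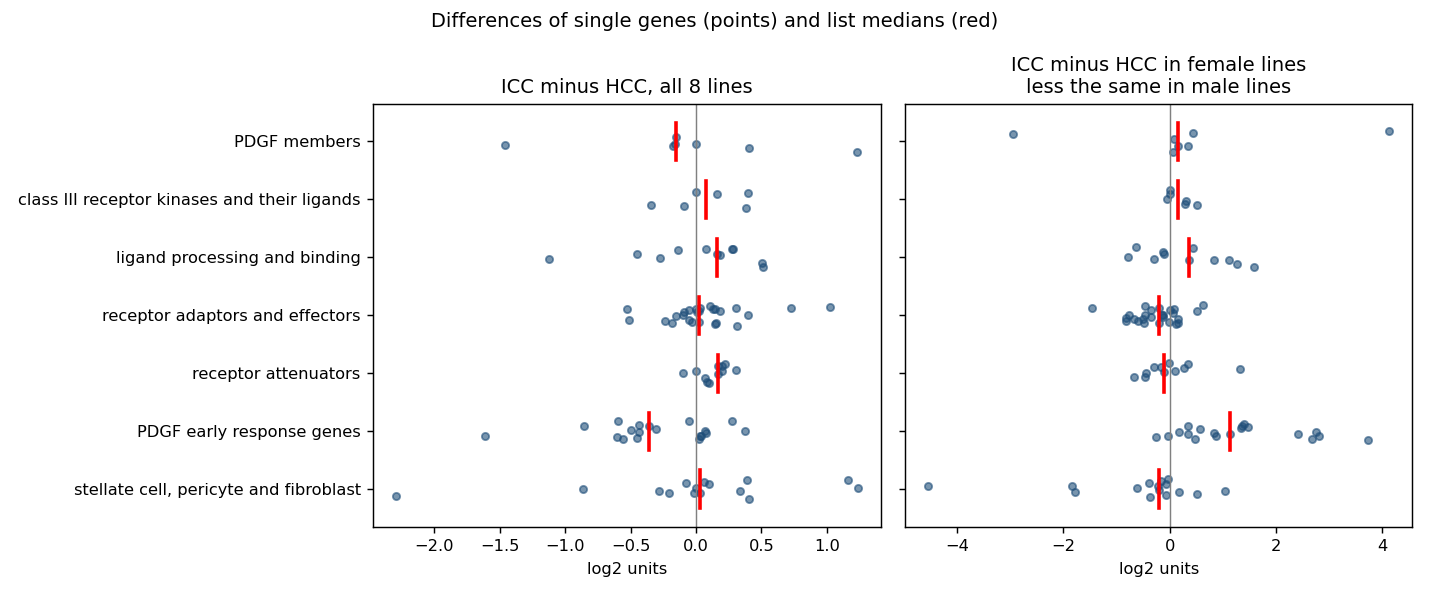
Log2 differences of single genes (points) in the PDGF family, 5 lists of genes around it and the stellate cell, pericyte and fibroblast markers, with list medians as red bars; left, ICC minus HCC over all lines, right, that difference in female-labelled lines less the same in male-labelled lines. Early response genes lie mostly right of 0 in the right panel (17 of 19), where Pdgfd is the point at 4.13 and Pdgfrb the one at -2.96.

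Markers of other cell types were read beside the receptors, since Pdgfrb also marks stellate cells and pericytes. None of 15 stellate cell, pericyte and fibroblast markers passed between the types, and 6 of 15 lay above the median gene level. Their mean ran from 5.07 to 5.94 in ICC and from 5.41 to 5.60 in HCC lines, highest in ICC2.7 and ICC2.9, the lines with the most Pdgfrb. Over the 8 lines 10 of the 15 genes correlated positively with Pdgfrb and 5 negatively (from -0.58 to 0.89, as a description), so the list did not follow Pdgfrb as a whole. Its 3 genes of smallest p between the types were Reln, Cspg4 and Des. Reln, a secreted matrix protein, measured 5.24 ± 0.06 in ICC and 4.90 ± 0.10 in HCC lines (SD, n = 4 each, adjusted p = 0.136). It was the 1 gene of this list without overlap, where 4.19% of all genes were higher in every ICC line. Cspg4, a pericyte proteoglycan, measured 7.69 in ICC2.7 and 7.78 in ICC2.9 against 6.67 and 6.00 in ICC9 and ICC10 and 5.57 to 6.14 in HCC lines. Des, the intermediate filament desmin, went the other way, at 4.97 to 5.44 in ICC lines and 5.37 to 6.86 in HCC lines, highest in HCC1. Col1a1, the main fibroblast collagen chain and the gene of this list with the highest correlation with Pdgfrb, measured 9.82 and 8.19 in ICC2.7 and ICC2.9, against 7.03 and 6.44 in ICC9 and ICC10 and 6.41 to 7.18 in HCC lines.

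Rgs5, a pericyte marker, had another profile. It measured 10.01 in ICC2.7 and 9.70 in ICC2.9 but also 9.49 to 10.12 in the HCC lines, and 6.08 and 4.40 in ICC9 and ICC10, the ICC lines with more Pdgfd. Single markers of these cells differed in level, with Lrat, of vitamin A storage in stellate cells, at 4.56 ± 0.06 and 4.53 ± 0.12, Dcn at 3.31 ± 0.07 and 3.21 ± 0.07 and Ngfr at 5.60 ± 0.26 and 5.89 ± 0.15 (ICC and HCC, SD, n = 4 each). Col1a1, Rgs5, Lrat, Dcn, Lum and Ngfr were named after their values were seen. The part of these genes in the Pdgfrb and Pdgfd values was not tested.

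Of 9 endothelial markers 0 lay above the median gene level, and of 5 platelet and megakaryocyte markers and 8 leukocyte markers 1 each. Endothelial cells and platelets are known sources of PDGF-B. The mean of the endothelial list ran from 4.56 to 4.81 in ICC and from 4.66 to 4.84 in HCC lines, and that of the platelet list from 4.78 to 5.15 and from 5.0 to 5.21. Both ranges overlapped between the types, and the part of these cells in the Pdgfb values was not tested. The leukocyte mean ran from 4.74 to 5.28 and from 5.08 to 5.44, and over the 8 lines it correlated with Pdgfrb at -0.95, as a description. Of its 8 genes 7 correlated negatively with Pdgfrb and 1 positively, from -0.91 in Cd68 to 0.10 in Clec4f. Cd68 varied most among them and so weighs most in this mean. The platelet and endothelial means also correlated negatively with Pdgfrb, at -0.80 and -0.67, with 5 of 5 and 7 of 9 genes negative. How many of all genes did so was not counted. Cd3e, a T cell receptor subunit, had the smallest p of the leukocyte list (limma's adjusted p = 0.0899). It measured 4.35 ± 0.02 in ICC and 4.74 ± 0.10 in HCC lines (SD, n = 4 each), without overlap. Over all genes 4.44% were lower in every ICC than in every HCC line. Of the 9 endothelial markers 1 was higher in every ICC line, where 4.19% of all genes were. The leukocyte marker above the median, Cd68, a lysosomal protein of macrophages, measured 8.59 ± 1.20 and 9.71 ± 0.56 (SD, n = 4 each, adjusted p = 0.399).

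The genes most like each widely varying member were sought by Pearson correlation over the 8 lines, among 3142 protein-coding genes with a range of at least 1 log2 unit. For Pdgfb these were Smad6 (0.983), an inhibitor of BMP signalling, Fhdc1 (0.967) and Trim15 (0.963), and 26 genes exceeded 0.9. Smad6 lay between 7.06 and 7.59 in ICC and between 7.96 and 8.06 in HCC lines, with ICC2.9 lowest in both genes. For Pdgfd they were Camk4 (0.996), a calcium-dependent kinase, Slc16a6 (0.976) and Olfr1324 (0.970), with 25 genes over 0.9. Camk4 shared the maximum in ICC10 (5.80) and the minimum in ICC2.7 (4.69), over a range smaller than that of Pdgfd.

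For Pdgfrb the most similar were Vcam1 (0.995), a cell adhesion molecule, Rbmx (0.994) and Ska2 (0.986), with 92 genes over 0.9. Vcam1 measured 11.17 in ICC2.7 and 10.54 in ICC2.9 and 7.30 in HCC4, and 8.40 to 9.28 in the other 5 lines, the order of Pdgfrb at both ends. With 8 lines in 4 groups and 3142 candidates, high coefficients are to be had for many profiles, and these are descriptions.

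**Figure D4:**
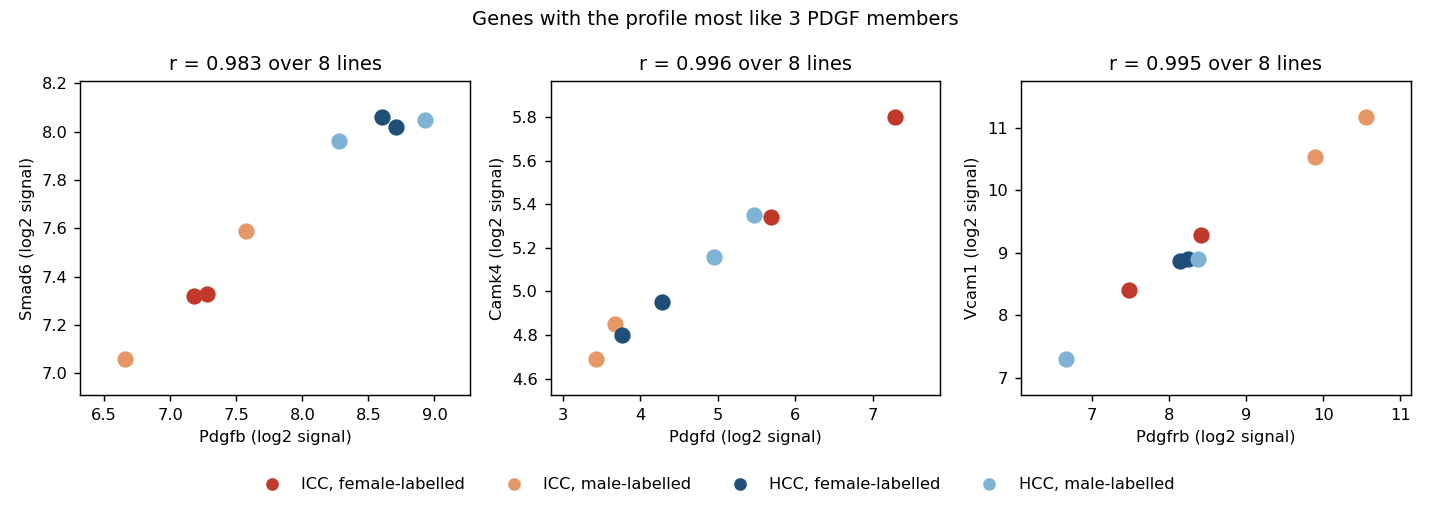
Log2 signal of Pdgfb, Pdgfd and Pdgfrb (horizontal) against the gene with the highest Pearson correlation with each (vertical), where points are the 8 lines coloured by type and labelled sex. Pdgfb with Smad6 splits by tumour type, Pdgfd with Camk4 reaches its maximum in a female-labelled ICC line, and Pdgfrb with Vcam1 in the male-labelled ICC lines.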

How the data were processed

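The authors' deposited table holds log2 values of 39993 probe sets for 8 lines, made by RMA in the oligo package per the submitters' processing notes; versions and build are not given there. No value is missing. Exactly 1 gene is named by 23521 probe sets, and the brightest of a gene stood for it, which gave 22180 genes. Signal over background was not assessed and no dim probe set was left out; the number of arrays limits the precision. ICC was compared with HCC in limma 3.58.1 under R 4.3.3, by lmFit and eBayes with two-sided tests and Benjamini-Hochberg adjustment over all genes (threshold 0.05). Female- and male-labelled lines were compared with type in the model, and the interaction with both. SE is limma's moderated standard error. The fit was tested on simulated data with independent noise in each line, which leaves out the dependence between these columns.

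The members, lists and tests were chosen with earlier results of these data known. Named are all members, the 3 genes of smallest p per pathway list and the 3 genes most like each member of range 1 or more; cell type markers and Fos were named after their values were seen. Comparisons within one type or sex were added after seeing the data, and the alternatives tried are in the closing section. Cyr61 and Ctgf were matched as Ccn1 and Ccn2, and some listed genes are not reported here.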

Additional observations from a re-analysis of the deposited data

Results flagged for a closer look

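In groups of 4 lines, 1 line lay far from the other 3 in 3 cases: Pdgfrb in HCC4, at 6.66 with the other HCC lines at 8.14 to 8.37; Pdgfrl in HCC4, at 6.04 with the others at 5.54 to 5.62; and Pdgfrl in ICC2.7, at 5.83 with the others at 5.40 to 5.45. About 1 in 20 groups is marked in this way by chance, and 14 groups were examined. Pdgfd moved with labelled sex in opposite directions in ICC and HCC lines without overlap in either type. The difference between the directions was 4.13 log2 units (limma's adjusted p = 0.113 over all genes). How many of all genes show such a pattern was not counted, and 20.1% had an unadjusted interaction p under 0.05 by limma.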

How the results depend on the processing

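The Pdgfb difference lay between -1.59 and -1.29 in 23 alternatives; the family was chosen by it, so its direction and calls are no sign of stability. Pdgfc in the sex comparison kept its direction in 17, between -0.67 and -0.34, and was past the threshold in 7. Between the types 58 genes and 1 member, Pdgfb, were called. Gene counts were 103 among genes above the median level, 2278 with array weights, whose estimation stopped before converging, 428 with sex as a covariate, 119 with sex and the direction without variation, 696 in female and 200 in male lines fitted alone, where Pdgfd and not Pdgfb was the 1 member called. They were 12 with the direction without variation, 6 with a random block and 0 with averaged pairs (limma, 1170 at an unadjusted p under 0.05), each with 0 members called. With the spread of the 4 groups, female lines gave 217 genes and 0 members and male lines 1341 genes and 2 members, Pdgfb and Pdgfrb. Without 1 line the counts ran from 2 (without ICC9) to 109 genes (without HCC1) and 0 to 1 members.

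For female against male, 653 genes and 1 member became 2036 genes with array weights, 280 genes and 0 members with the direction without variation, 0 members with quantile normalization, and 146 (without ICC9) to 917 genes with 0 to 1 members without 1 line. For the interaction, 0 genes and 0 members (limma, 4467 at an unadjusted p under 0.05) became 255 genes and 1 member, Pdgfd, with the direction without variation, and 0 to 238 genes (238 without ICC9, 10 without ICC10, 0 without any other line) and 0 to 1 members without 1 line.

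Signs turned as follows. ICC minus HCC in female lines was 0.055 for Pdgfa, 0.015 for Pdgfc and -0.25 for Pdgfrb, and in male lines -1.66 for Pdgfd and -0.07 for Pdgfra, which was -0.0045 after quantile normalization and -0.0075 after median centring. Without 1 line Pdgfd ran from -0.35 to 0.94 and Pdgfra from -0.036 to 0.071. Female minus male was 0.14 for Pdgfa in ICC lines and, in HCC lines, -1.19 for Pdgfd, -0.055 for Pdgfra and 0.68 for Pdgfrb. Without 1 line it ran from -0.11 to 0.26 for Pdgfb and from -0.061 to 0.067 for Pdgfra, and the interaction from -0.39 to 0.52 for Pdgfb, from -0.015 to 0.305 for Pdgfra and from -0.14 to 0.29 for Pdgfrl. The cause was not tested. No paired analysis was possible because the labels give the lines no replicate numbers that types share. Dim signal limits what can be read from Pdgfra, Pdgfrl and Pdgfd.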
